A study of Homo sapiens with 9 samples.

Results

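The genes described here are the 40 WNT ligands, receptors, antagonists and feedback genes of a fixed list, found by gene symbol among the 60609 genes of the deposited count tables. They comprise 16 WNT ligands, 10 Frizzled receptors, the LRP5 and LRP6 co-receptors, 4 secreted antagonists, AXIN2, LEF1 and TCF7, the kinase-type receptors ROR1, ROR2 and RYK, and the ubiquitin ligases RNF43 and ZNRF3. All 40 were found, 36 passed the filter on low counts and were tested, and 4 (WNT1, WNT2, WNT16 and WIF1) were too low to test. RNA had been sequenced from MCF-10A, a human breast epithelial cell line that does not form tumours, in 3 genotypes with 3 libraries each. The H1047R and E545K lines carry a knocked-in change in PIK3CA, which encodes p110-alpha, a catalytic subunit of PI 3-kinase, and WT is the parental line. The knock-in lines had been maintained without epidermal growth factor (EGF, 0 ng/ml) and WT with 20 ng/ml, all in 5% serum. All 3 lines then spent 24 h before harvest in 0.2 ng/ml EGF and 1% stripped serum, with insulin, hydrocortisone and cholera toxin. A knock-in genotype and its EGF-free maintenance therefore cannot be told apart in comparisons with WT. The labels give 1 knock-in line per change and do not say how many clones each line stands for.

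WNT proteins are secreted, lipid-modified ligands. In the beta-catenin branch of the pathway a ligand joins a Frizzled receptor to LRP5 or LRP6, beta-catenin is spared from degradation, and TCF/LEF factors switch on targets that include the feedback inhibitor AXIN2. ROR1, ROR2 and RYK are alternative receptors or co-receptors, studied most with WNT5A, and act largely without beta-catenin. SFRP1 and WIF1 bind the ligands, DKK1 binds LRP5 and LRP6, and RNF43 and ZNRF3 remove Frizzled receptors from the cell surface. In the mouse mammary gland, WNT signals take part in ductal growth, side branching and the upkeep of basal cells.

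Total counts were 377093507, 605972919 and 518112601 in H1047R, 134245702, 102971299 and 95533991 in E545K, and 136132315, 96045875 and 95091894 in WT. Levels are CPM, counts per 1000000 of the TMM-scaled library size, where TMM is a factor that adjusts the total for differences in RNA makeup. A count of 3, taken as the floor, corresponds to 0.0052 to 0.00863 CPM in H1047R, 0.021 to 0.0299 in E545K and 0.0223 to 0.0318 in WT, and it covers counting error only. The H1047R libraries stand in a table of their own, and 77.6 to 78.1% of their counts fell in protein-coding genes, against 85.2 to 85.8% in E545K and 85.9 to 86.0% in WT, so table and genotype cannot be told apart. PIK3CA itself had 41.7 to 43.9 CPM in H1047R, 37.4 to 39.1 in E545K and 43.9 to 47.9 in WT, and gene counts do not read the changed base. All 10 basal epithelial markers listed were at 1 CPM or more in each genotype. WT replicate 1 stood apart by genes of luminal breast cells. Its TFF1 was 10.0 CPM and its KRT19 9.87 CPM, where WT replicates 2 and 3 had 0.507 and 0.742 CPM of TFF1 and 1.61 and 1.68 CPM of KRT19. TFF1 was 0 in H1047R and at most 0.578 CPM in E545K. The 15 luminal markers summed to 566 to 655 CPM in H1047R, 626 to 636 in E545K and 1470 to 1590 in WT, with 10 of 15 at 1 CPM or more in some library. KRT8 and KRT18 made up most of these sums. GATA3 and GREB1 went the other way in H1047R (44.5 to 46.0 and 92.1 to 115 CPM, against 19.8 to 23.9 and 39.3 to 46.1 in WT). In E545K, FOXA1 and XBP1 did so (8.85 to 9.96 and 57.3 to 58.1 CPM, against 3.1 to 4.32 and 43.4 to 48.6 in WT). Of the stromal markers 3 of 9 reached 1 CPM, of the haematopoietic markers 2 of 6 and of the endothelial markers 1 of 5. Stromal markers summed to 103 to 113 CPM in H1047R, 115 to 117 in E545K and 119 to 126 in WT. DCN was 11 to 14.2 CPM in H1047R, 7.05 to 8.13 in E545K and 46.0 to 48.9 in WT. COL1A1 went the other way, at 58.0 to 71.1, 58.1 to 61.0 and 46.8 to 47.8 CPM in the same order. FAP was 46.5 to 48.7 CPM in E545K, against 23.0 to 33.0 in H1047R and 25.2 to 28.3 in WT. Haematopoietic markers summed to 6.96 to 8.60 CPM in H1047R, 11.9 to 12.6 in E545K and 16 to 16.6 in WT, and endothelial markers, nearly all KDR, to 22.0 to 23.7 in H1047R, 10.5 to 12.2 in E545K and 8.46 to 10.3 in WT. In bulk RNA, fewer cells of a type and less RNA per cell cannot be told apart. The part of these markers in the results below was not tested, beyond leaving out WT replicate 1.

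Among the called genes, DKK1 fell most in both knock-in lines. ROR1 and WNT5A rose most in H1047R, and ROR1, WNT10A and WNT5B in E545K. Genes with an adjusted p under 0.05 in edgeR's quasi-likelihood test were called, with Benjamini-Hochberg adjustment over the 26412 genes tested. In H1047R against WT, 20 of the 36 tested genes were called, 7 higher and 13 lower. That is 55.6%, beside 55.5% of all genes tested (27.4% higher, 28.1% lower). The split was 9 higher and 11 lower over protein-coding genes only, and 8 and 9 with a filter of 1 CPM. In E545K against WT, 20 were called, 10 higher and 10 lower, beside 36.6% of all genes (17.7% higher, 18.9% lower). In H1047R against E545K, 25 were called, 9 higher and 16 lower (12 and 14 over protein-coding genes only). That is 69.4%, beside 53.2% of all genes (25.9% higher, 27.3% lower). The first of these shares is close to its background and the others lie above theirs, which is a description and not a test of the list. Without WT replicate 1 the counts were 16, 20 and 25. All genes called fell too, from 14651 to 13077 in H1047R against WT and from 9663 to 8093 in E545K against WT.

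Changes of at least 2-fold were fewer. There were 7 in H1047R against WT, beside 17.4% of all genes. ROR1 and WNT5A were the 2 higher (10.0% of all genes), and DKK1, WNT9A, FZD2, FZD10 and WNT11 the 5 lower (7.39%). In E545K against WT there was 1, DKK1, beside 7.1% of all genes. It was lower (2.58% of all genes), and 0 were higher (4.52%). In H1047R against E545K there were 6, beside 15.0% of all genes. ROR1 and FZD8 were the 2 higher (7.74%), and DKK1, WNT5B, WNT10A and WNT11 the 4 lower (7.24%). The median log2 fold change of the 36 genes was -0.15 in H1047R against WT (0.021 over all genes), -0.03 in E545K against WT (0.003) and -0.15 in H1047R against E545K (0.016). The libraries of the genotypes did not overlap for 22 of the 36 genes in H1047R against WT (60.1% of all genes), 25 in E545K against WT (54.2%) and 29 in H1047R against E545K (58.8%).

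Comparisons with WT share the WT libraries, so their calls are set side by side only. FZD5, LRP6, ROR1 and WNT5A were called higher in both mutants, and DKK1, FZD2, FZD10, LRP5, RYK and WNT9A lower in both. WNT5B was called lower in H1047R and higher in E545K, and FZD8 and WNT7B higher in H1047R and lower in E545K. In H1047R and not in E545K, WNT4 was called higher and FZD7, TCF7, WNT3, WNT6, WNT10B and WNT11 lower. In E545K and not in H1047R, LEF1, SFRP1, WNT7A, WNT10A and ZNRF3 were called higher and AXIN2 and FZD1 lower. Neither mutant passed for DKK3, FZD3, FZD4, FZD6, FZD9, RNF43, ROR2, WNT2B and WNT3A. Whether a gene's change differed between the mutants is read from H1047R against E545K, not from these lists.

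**Figure D1:**
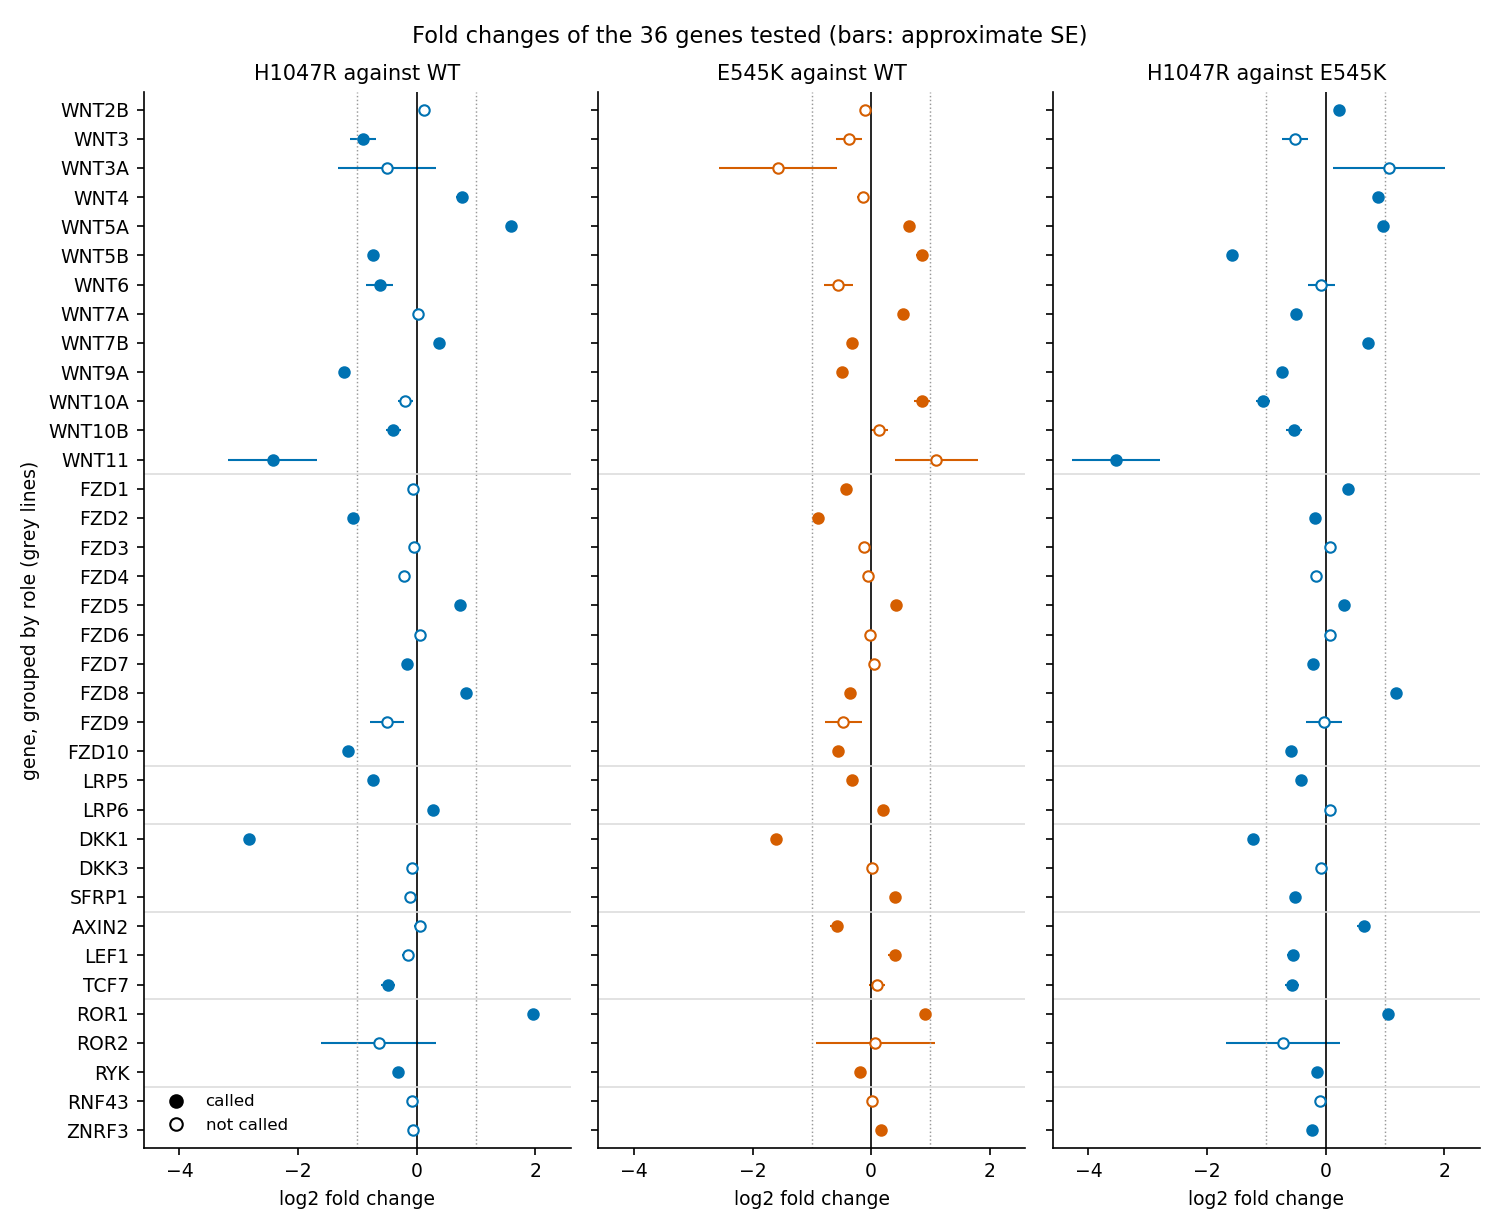
Log2 fold change of the 36 tested genes in the 3 comparisons, with bars of 1 approximate standard error. Filled points passed the adjusted p of 0.05, dotted lines mark 2-fold, and DKK1 lies left of the lower line in all 3 panels, at -2.82, -1.60 and -1.22.

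Among the ligands, WNT5A rose and WNT9A fell in both mutants, while WNT5B went opposite ways. WNT5A, a ligand known mainly for signalling without beta-catenin (chr3:55465715-55490539 of hg38), had 15.1, 14.4 and 15.1 CPM in the H1047R libraries, 7.91, 7.84 and 7.08 in E545K and 4.93, 4.70 and 5.08 in WT. The 3 genotypes did not overlap, with H1047R highest and WT lowest. Its log2 fold change was 1.60 ± 0.06 in H1047R against WT (adjusted p = 2.95e-11), 0.64 ± 0.07 in E545K against WT (2.87e-06) and 0.96 ± 0.06 in H1047R against E545K (7.43e-09), each with an approximate standard error. Leaving out any library kept the first of these between 1.57 and 1.62.

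WNT5B, the close relative of WNT5A (chr12:1529891-1647212), did not follow it. It had 2.03, 2.07 and 1.85 CPM in H1047R, 6.03, 6.04 and 5.70 in E545K and 3.20, 3.58 and 3.10 in WT. E545K was highest and H1047R lowest, with no overlap. WNT5B gave log2 fold changes of -0.73 ± 0.09 in H1047R against WT (adjusted p = 7.45e-06), 0.85 ± 0.09 in E545K against WT (3.76e-06) and -1.58 ± 0.09 in H1047R against E545K (1.84e-09).

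WNT9A, which in the mouse takes part in joint formation, lies on chr1:227918656-227947932. Its libraries had 14.0, 14.8 and 14.4 CPM in H1047R, 24.4, 24.1 and 23.5 in E545K and 33.3, 34.3 and 33.5 in WT. The order was the reverse of that of WNT5A, again without overlap. Its log2 fold change was -1.22 ± 0.04 in H1047R against WT (adjusted p = 6.9e-12), -0.49 ± 0.04 in E545K against WT (5.3e-07) and -0.74 ± 0.04 in H1047R against E545K (2.63e-09).

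WNT10A, a ligand needed for tooth and hair development (chr2:218880852-218899581), stood out in E545K. It had 2.96, 2.27 and 2.61 CPM in H1047R, 4.91, 6.01 and 5.33 in E545K and 2.52, 3.22 and 3.22 in WT. The H1047R and WT libraries overlapped, and those of E545K lay above both. The log2 fold change was -1.05 ± 0.12 in H1047R against E545K (adjusted p = 4.15e-06) and 0.86 ± 0.13 in E545K against WT (8.47e-05), and -0.19 ± 0.13 in H1047R against WT (0.219) was not called.

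WNT7B, a ligand of the beta-catenin branch expressed in many epithelia (chr22:45920366-45977162), was among the ligands with the most RNA per length. It had 38.3, 41.8 and 39.5 CPM in H1047R, 23.7, 24.8 and 24.9 in E545K and 32.1, 30.7 and 29.5 in WT. H1047R was highest and E545K lowest, with log2 fold changes of 0.37 in H1047R against WT (adjusted p = 8.98e-06), -0.33 in E545K against WT (7.9e-05) and 0.71 in H1047R against E545K (1.32e-08). WNT4, which in the mouse mammary gland acts downstream of progesterone, averaged 13.3 ± 1.61 CPM in H1047R, 7.17 ± 0.839 in E545K and 7.85 ± 0.389 in WT (SD, n = 3 each). It rose in H1047R against WT by 0.76 (6.38e-06), and its H1047R level exceeded that of E545K by 0.89 (1.53e-06), both as log2 fold changes. In E545K against WT its value was -0.13 (0.341).

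WNT7A, which in the mouse acts in limb and reproductive tract patterning, averaged 7.22 ± 0.521 CPM in H1047R, 10.2 ± 0.863 in E545K and 7.08 ± 0.272 in WT (SD, n = 3 each). It was called higher in E545K against WT (0.53, adjusted p = 7.83e-05) and lower in H1047R against E545K (-0.50, 4.97e-05), and was 0.03 (0.779) in H1047R against WT. WNT10B, a ligand of the beta-catenin branch, averaged 1.43, 2.07 and 1.88 CPM in H1047R, E545K and WT. It was called lower in H1047R against E545K (-0.53, 0.00315) and against WT (-0.39, 0.0198), and the second call was lost without WT replicate 1 (0.07), WT replicate 3 (0.0581) or H1047R replicate 3 (0.0698). WNT2B averaged 6.83, 5.85 and 6.28 CPM in H1047R, E545K and WT and was called in H1047R against E545K only (0.22, 0.0193), not without E545K replicate 2 (0.0782) or H1047R replicate 3 (0.0629). Reads of WNT2B are uncertain, since 21.5% of its exon bases overlap ST7L on the other strand and strand was not used in counting.

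The other ligands stayed below 1 CPM in every library. WNT3, which in the mouse is needed for the primitive streak, averaged 0.386 CPM in H1047R, 0.552 in E545K and 0.722 in WT, and was called lower in H1047R against WT (-0.90 ± 0.22, adjusted p = 0.00251). In H1047R against E545K it was -0.52 (0.0598), and called without H1047R replicate 3 (-0.60, 0.0439). WNT6 averaged 0.442, 0.461 and 0.678 CPM in H1047R, E545K and WT, with a log2 fold change of -0.62 (0.0351) in H1047R against WT that was not called without H1047R replicate 1 (0.0638), H1047R replicate 2 (0.114), WT replicate 1 (0.0613) or WT replicate 2 (0.124). WNT11 rested on 2, 10 and 18 counts in H1047R, 10, 37 and 30 in E545K and 22, 6 and 9 in WT. Its log2 fold change was -2.43 ± 0.75 in H1047R against WT (0.0124), which without WT replicate 1 was -1.98 and not called (0.0805), and -3.53 ± 0.74 in H1047R against E545K (0.000949). Without H1047R replicate 3 these were -3.09 and -4.18. With so few counts the fold changes depend on the fit, and 8.6% of WNT11's exon bases overlap another transcript on the other strand.

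WNT1, WNT2 and WNT16 were at or near the floor, and WNT3A was in some libraries. WNT1 was at 3 counts or fewer in 8 of 9 libraries, WNT2 in 6, WNT3A in 4 and WNT16 in 3. WNT3A, the ligand most used to activate beta-catenin in culture, had 2, 56 and 35 counts in H1047R, 7, 2 and 1 in E545K and 13, 2 and 12 in WT, and it was not called in any comparison. No fold change is given for WNT1, WNT2 and WNT16, which were not tested.

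Of the 10 Frizzled receptors, FZD8 rose in H1047R, FZD5 rose in both mutants, and FZD2 and FZD10 fell in both. FZD8 (chr10:35638249-35642278) had 23.3, 25.2 and 26.2 CPM in H1047R, 10.1, 11.5 and 11.1 in E545K and 14.2, 14.2 and 13.3 in WT. The genotypes did not overlap, and E545K was lowest. On the log2 scale FZD8 changed by 0.84 ± 0.06 in H1047R against WT (adjusted p = 1.95e-08), -0.35 ± 0.06 in E545K against WT (0.000558) and 1.19 ± 0.06 in H1047R against E545K (6.94e-10). A long noncoding RNA on the other strand shares 7.89% of its exon bases and averaged 4.14, 2.17 and 2.71 CPM of the unscaled library total in H1047R, E545K and WT.

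FZD2 (chr17:44557484-44561262) had 15.2, 16.9 and 15.4 CPM in H1047R, 17.8, 18.6 and 17.6 in E545K and 33.7, 33.4 and 33.7 in WT. Both mutants lay well below WT, with log2 fold changes of -1.08 ± 0.05 in H1047R (adjusted p = 1.22e-10) and -0.90 ± 0.05 in E545K (3.58e-09). The call in H1047R against E545K (-0.18, 0.00738) was lost without E545K replicate 2 (-0.16, 0.0504). FZD10 (chr12:130162459-130165740) had 3.30, 3.59 and 3.90 CPM in H1047R, 5.43, 5.50 and 5.30 in E545K and 8.13, 8.22 and 7.55 in WT. The genotypes did not overlap, and the log2 fold change was -1.15 ± 0.08 in H1047R against WT (8.52e-09), -0.56 ± 0.08 in E545K against WT (5.51e-05) and -0.59 ± 0.08 in H1047R against E545K (1.61e-05).

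FZD5 had 18.6, 19.4 and 19.6 CPM in H1047R, 16.6, 14.6 and 15.3 in E545K and 11.7, 11.4 and 11.6 in WT. It rose by 0.73 in H1047R against WT (adjusted p = 2.81e-08) and by 0.42 in E545K against WT (3.26e-05). FZD1 had 14.6, 15.5 and 15.0 CPM in H1047R, 10.9, 12.1 and 12.02 in E545K and 15.98, 15.8 and 15.3 in WT. FZD1 fell only in E545K against WT (-0.43, 2.66e-05) and was higher in H1047R than in E545K (0.37, 4.88e-05).

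FZD6, by far the most abundant Frizzled per exon length, is known for planar cell polarity in mouse skin. It had 146, 149 and 138 CPM in H1047R, 140, 131 and 139 in E545K and 139, 137 and 139 in WT, with overlapping libraries and no call. FZD3, its relative in planar polarity, had 22.6, 22.7 and 21.5 CPM in H1047R, 21.5, 21.7 and 20.2 in E545K and 22.0, 22.5 and 24.5 in WT, also with no call. Leaving out H1047R replicate 3 brought FZD6 past the threshold in H1047R against WT (0.10, adjusted p = 0.0236) and against E545K (0.12, 0.00943).

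FZD7 averaged 6.43 ± 0.137 CPM in H1047R, 7.45 ± 0.360 in E545K and 7.21 ± 0.0413 in WT (SD, n = 3 each). Its log2 fold change of -0.16 in H1047R against WT (adjusted p = 0.0389) was not called in 8 of the 9 fits without a library, with adjusted p between 0.0501 and 0.0951 in those 8. In H1047R against E545K it was -0.21 (0.0108), not called without E545K replicate 3 (0.0686). FZD4, known as the receptor of norrin, averaged 3.65, 4.08 and 4.22 CPM in H1047R, E545K and WT and was not called, except in H1047R against WT without H1047R replicate 1 (-0.27, 0.0175) or WT replicate 3 (-0.26, 0.0426). Of its exon bases 18.9% overlap PRSS23 on the other strand. FZD9 averaged 0.30, 0.305 and 0.425 CPM in H1047R, E545K and WT, with no call.

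The LRP co-receptors went opposite ways in both mutants. LRP5 had 96.8, 93.9 and 95.8 CPM in H1047R, 127, 124 and 131 in E545K and 157, 157 and 161 in WT. It fell by 0.73 in H1047R against WT (adjusted p = 3.48e-10) and by 0.32 in E545K (7.74e-06), as log2 fold changes, with no overlap of genotypes. LRP6 had 39.9, 38.9 and 39.1 CPM in H1047R, 38.6, 36.3 and 37.1 in E545K and 30.9, 33.2 and 33.5 in WT. It was called higher in both, by 0.27 (8.4e-05) and 0.20 (0.00244), and H1047R against E545K (0.07, 0.178) was not called.

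ROR1 showed the largest called rise of the 36 genes in both mutants against WT. ROR1, a kinase-type receptor of WNT5A that is abundant in the embryo (chr1:63774017-64181498), had 30.3, 32.3 and 31.9 CPM in H1047R, 15.6, 14.9 and 15.2 in E545K and 8.45, 7.78 and 8.01 in WT. The spread within a genotype was small beside the distances between them, and the order of genotypes was that of WNT5A. On the log2 scale it changed by 1.96 ± 0.05 in H1047R against WT (adjusted p = 2.87e-13), 0.91 ± 0.05 in E545K against WT (4.49e-09) and 1.05 ± 0.05 in H1047R against E545K (2.42e-10). Leaving out any library moved these only within 1.93 to 1.99, 0.89 to 0.94 and 1.03 to 1.08.

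The other kinase-type receptors did not rise. ROR2, the relative of ROR1, had 34, 0 and 24 counts in H1047R, 12, 5 and 10 in E545K and 12, 4 and 8 in WT, at most 0.0997 CPM in a library and with no call. RYK had 49.7, 52.0 and 48.4 CPM in H1047R, 54.5, 55.6 and 54.9 in E545K and 62.0, 61.7 and 63.2 in WT, and fell by 0.32 (adjusted p = 6.5e-06) in H1047R against WT and by 0.18 (0.00231) in E545K against WT. Its call in H1047R against E545K (-0.14, 0.009) was lost without E545K replicate 2 (0.0519).

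Of the secreted antagonists, DKK1 fell in both mutants and SFRP1 rose in E545K. DKK1, which blocks LRP5 and LRP6 and is itself a target of beta-catenin in many cells (chr10:52314281-52318042), had 19.2, 17.1 and 14.3 CPM in H1047R, 41.1, 38.1 and 38.3 in E545K and 118, 116 and 122 in WT. The H1047R libraries lay below those of E545K, and both lay far below WT. On the log2 scale it changed by -2.82 ± 0.08 in H1047R against WT (adjusted p = 6.72e-13), -1.60 ± 0.08 in E545K against WT (7.58e-10) and -1.22 ± 0.08 in H1047R against E545K (6.8e-09). PRKG1-AS1, on the other strand, shares 10.2% of the exon bases of DKK1 and averaged 2.27, 5.61 and 15.5 CPM of the unscaled library total in H1047R, E545K and WT. Reads in the shared bases counted for both genes.

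SFRP1, which binds WNT ligands and is often silenced in breast tumours, was the most abundant of the 40 genes per exon length. It had 362, 339 and 307 CPM in H1047R, 481, 486 and 479 in E545K and 359, 365 and 368 in WT. E545K lay above WT (log2 0.41, adjusted p = 1.33e-05) and above H1047R, which was lower than E545K by 0.52 (5.24e-07). In H1047R against WT it was -0.11 (0.0651), past the threshold without H1047R replicate 1 (-0.17, 0.000725).

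DKK3, a divergent member of its family, averaged 9.82 ± 0.296 CPM in H1047R, 10.3 ± 0.603 in E545K and 10.3 ± 0.143 in WT (SD, n = 3 each), with no call. Its counts are uncertain, because 47.5% of its exon bases overlap USP47 on the other strand. WIF1, which binds WNT ligands, had 0 counts in each H1047R library, 2, 4 and 2 in E545K and 2, 2 and 8 in WT. That puts 7 of 9 libraries at or under 3 counts, and a count of 0 allows up to 0.00863 CPM in H1047R.

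**Figure D2:**
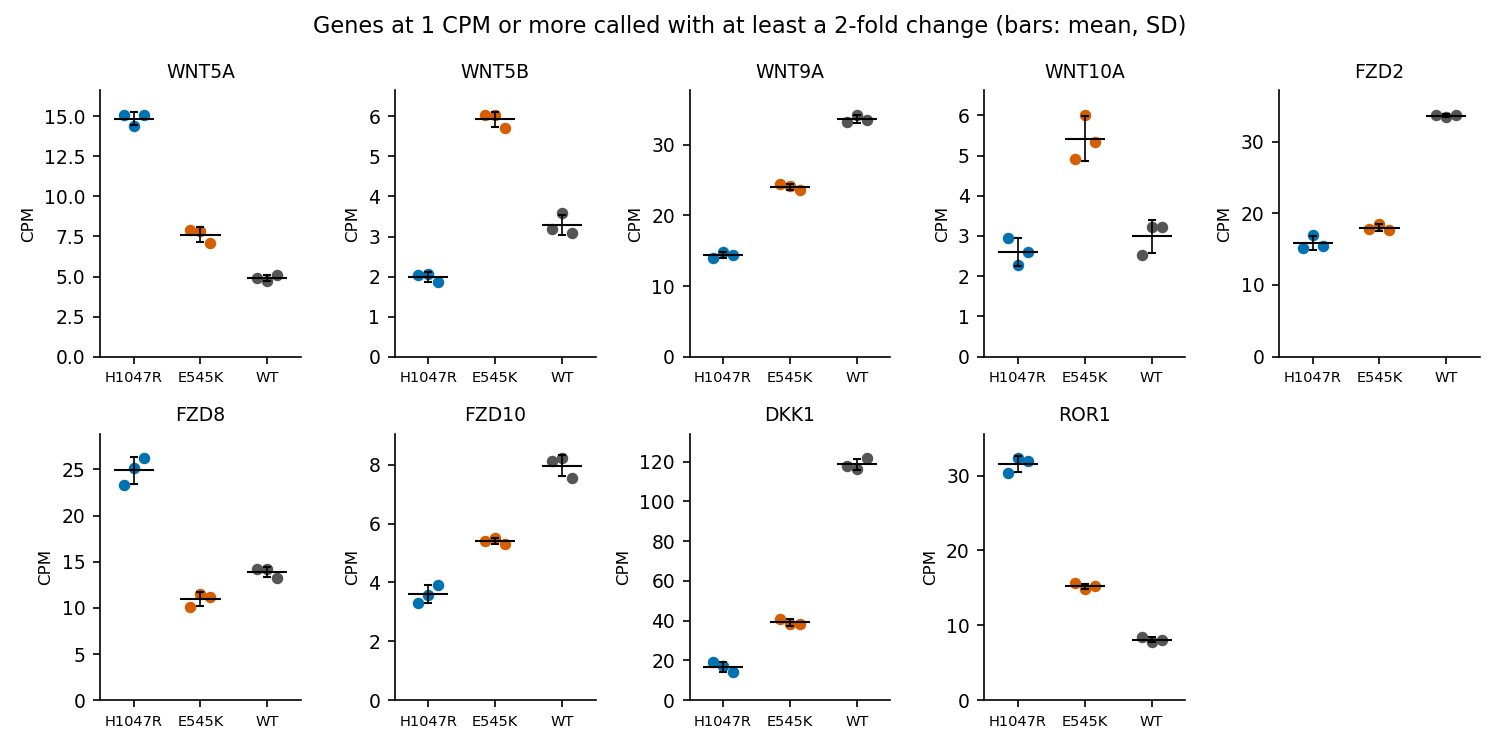
CPM in each library of the 9 genes at 1 CPM or more that were called with at least a 2-fold change, with H1047R, E545K and WT from left to right, and with the mean and SD of 3 libraries as bars. WNT5A and ROR1 are highest in H1047R and lowest in WT, WNT9A, FZD2, FZD10 and DKK1 are the reverse, and WNT5B and WNT10A are highest in E545K.

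The start regions of 4 of these genes are printed because they show the largest changes (DKK1, ROR1), the opposed change of a receptor (FZD8) and the ligand that moved with ROR1 (WNT5A). Each is 250 bases before to 50 after the start in RefSeq, build GRCh38.p14, written 5′ to 3′ on the gene's strand. They lie at chr10:52314031-52314330 on the plus strand for DKK1, chr1:63773767-63774066 on the plus strand for ROR1, chr10:35642247-35642546 on the minus strand for FZD8 and chr3:55487257-55487556 on the minus strand for WNT5A, which has another listed start. Capitals mark GGAATG (the core bound by TEAD factors, first base at -50) and TATAAA (the TATA box, first base at -30) in DKK1, and TATAAA at -29 in FZD8.
DKK1: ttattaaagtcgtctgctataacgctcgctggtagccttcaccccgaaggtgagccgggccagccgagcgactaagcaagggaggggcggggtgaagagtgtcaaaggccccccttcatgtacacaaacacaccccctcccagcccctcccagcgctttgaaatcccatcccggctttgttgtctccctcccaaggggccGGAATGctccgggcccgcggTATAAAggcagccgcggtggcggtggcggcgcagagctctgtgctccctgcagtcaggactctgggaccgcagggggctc
ROR1: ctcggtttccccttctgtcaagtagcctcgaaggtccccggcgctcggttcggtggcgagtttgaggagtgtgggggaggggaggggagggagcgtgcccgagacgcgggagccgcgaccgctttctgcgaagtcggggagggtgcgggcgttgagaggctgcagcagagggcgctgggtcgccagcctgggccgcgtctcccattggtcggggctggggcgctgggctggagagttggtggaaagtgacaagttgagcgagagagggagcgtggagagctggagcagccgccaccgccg
FZD8: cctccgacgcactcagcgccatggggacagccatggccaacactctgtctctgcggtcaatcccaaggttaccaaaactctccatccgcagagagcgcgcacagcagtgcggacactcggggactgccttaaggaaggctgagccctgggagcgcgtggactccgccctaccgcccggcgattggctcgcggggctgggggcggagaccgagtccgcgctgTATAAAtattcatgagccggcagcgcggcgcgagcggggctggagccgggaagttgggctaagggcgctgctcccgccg
WNT5A: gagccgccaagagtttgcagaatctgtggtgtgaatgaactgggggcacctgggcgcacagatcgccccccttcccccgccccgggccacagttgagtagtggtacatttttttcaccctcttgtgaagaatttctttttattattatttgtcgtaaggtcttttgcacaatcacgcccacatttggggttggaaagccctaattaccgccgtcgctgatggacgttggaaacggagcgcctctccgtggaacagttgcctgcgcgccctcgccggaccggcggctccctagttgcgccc

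Of the 40 genes, 27 had such a window, 32 windows in all, and 5 motifs were searched on both strands. No window was available for WNT7B, WNT10B, WNT11, FZD2, FZD3, FZD6, FZD7, FZD10, LRP6, DKK3, SFRP1, AXIN2 and ZNRF3, so the matches below do not cover them. The TCF/LEF core ATCAAAG was in 0 of the 32 windows and in 2.62% of 35116 windows of all genes. The AP-1 site TGANTCA was in 1 window (RNF43; 7.71% of all windows). The FOXO site GTAAACA was in 2 (WNT5B and TCF7; 3.42%). GGAATG was in 3 (WNT16, DKK1 and RNF43; 14.0%). TATAAA was in 4 (WNT5B, FZD8, DKK1 and TCF7; 11.5%). A match is a description of the letters, and its absence says only that they are not in this window.

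AXIN2, the transcript most used as a readout of beta-catenin signalling, fell in E545K only. It had 5.29, 7.19 and 6.57 CPM in H1047R, 3.86, 3.99 and 4.45 in E545K and 5.89, 6.50 and 5.99 in WT. The E545K libraries lay below all others, and the H1047R libraries were spread around those of WT. The log2 fold change was 0.05 ± 0.10 in H1047R against WT (adjusted p = 0.685), -0.58 ± 0.11 in E545K against WT (0.000636) and 0.64 ± 0.11 in H1047R against E545K (0.000125). An overlapping protein-coding transcript on the same strand shares 25.2% of its exon bases.

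LEF1 and TCF7, the DNA-binding partners of beta-catenin, did not follow AXIN2. LEF1 had 2.52, 2.14 and 2.13 CPM in H1047R, 3.21, 3.43 and 3.25 in E545K and 2.44, 2.58 and 2.46 in WT. It rose in E545K against WT (0.40, adjusted p = 0.00783), was lower in H1047R than in E545K (-0.55, 0.000369) and was -0.14 (0.265) in H1047R against WT. TCF7 had 5.32, 5.55 and 8.12 CPM in H1047R, 9.39, 9.82 and 9.08 in E545K and 9.02, 8.81 and 8.64 in WT. It fell in H1047R against WT (-0.48, 0.00417) and against E545K (-0.57, 0.00114), with H1047R replicate 3 far nearer the other genotypes than its fellows. LEF1-AS1 shares 5.2% of the exon bases of LEF1 and SKP1 2.08% of those of TCF7.

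RNF43 and ZNRF3, the ubiquitin ligases that clear Frizzled receptors and are feedback targets of the pathway, showed no change of 2-fold. RNF43 had 12.5, 13.2 and 13.3 CPM in H1047R, 13.8, 13.9 and 13.8 in E545K and 13.7, 14.2 and 13.4 in WT, with no call, and 73.9% of its exon bases are shared with other genes. ZNRF3 had 19.7, 19.6 and 19.9 CPM in H1047R, 22.6, 22.9 and 23.8 in E545K and 21.1, 19.2 and 21.1 in WT. ZNRF3 was lower in H1047R than in E545K (-0.23, adjusted p = 0.00106). Its call in E545K against WT (0.17, 0.0138) was lost without E545K replicate 3 (0.0778) or WT replicate 2 (0.0977).

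**Figure D3:**
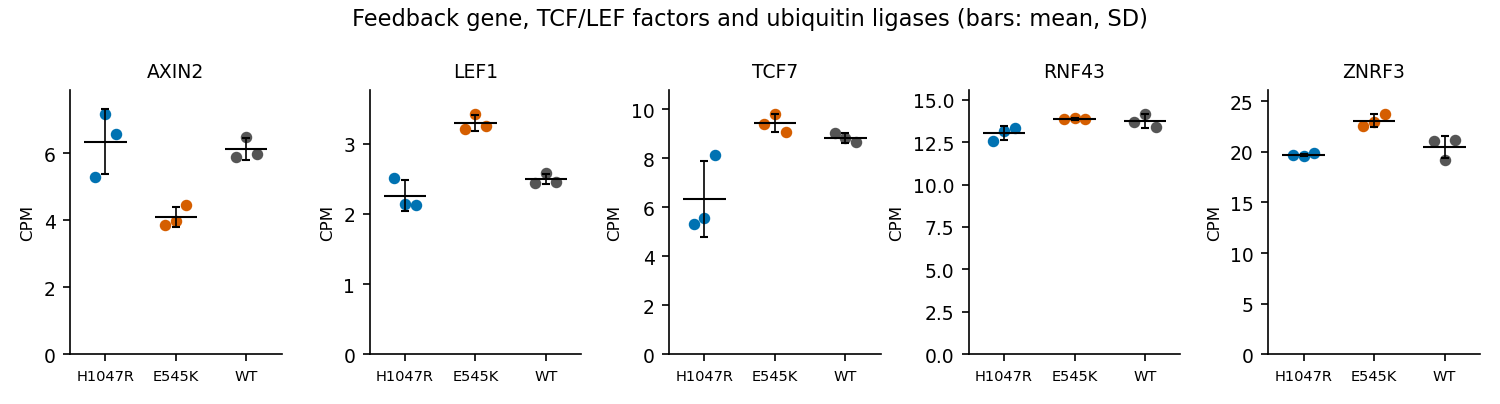
CPM in each library of AXIN2, LEF1, TCF7, RNF43 and ZNRF3, with H1047R, E545K and WT from left to right, and with the mean and SD of 3 libraries as bars. AXIN2 is lowest in E545K, at 3.86 to 4.45 CPM, and TCF7 is uneven within H1047R, at 5.32 to 8.12 CPM.

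Compared per kilobase of exon, so that genes can be set beside each other, the ligands summed to 20.75 ± 0.216 CPM per kb in H1047R, 20.7 ± 0.537 in E545K and 22.06 ± 0.111 in WT (SD, n = 3 each). Their makeup varied more than their sum. WNT7B made up 37.8% of the ligand sum in H1047R, 23.3% in E545K and 27.45% in WT, and WNT9A made up 17.3%, 29.0% and 38.1%. WNT7B was thus the leading ligand in H1047R, and WNT9A in E545K and WT. WNT5A made up 9.68% in H1047R, 4.97% in E545K and 3.005% in WT. These sums and shares are descriptions and were not tested.

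The Frizzled receptors summed to 55.8 ± 1.46 CPM per kb in H1047R, 50.75 ± 1.03 in E545K and 57.0 ± 0.297 in WT (SD, n = 3 each). FZD6 made up 63.6% of it in H1047R, 66.2% in E545K and 59.7% in WT. FZD2 made up 7.51% in H1047R, 9.38% in E545K and 15.6% in WT, and FZD8 made up 11.1%, 5.35% and 6.05%. FZD8 was therefore second in order in H1047R, where FZD2 held that place in E545K and WT.

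The 4 antagonists summed to 79.4 ± 6.90 CPM per kb in H1047R, 120.4 ± 0.945 in E545K and 131.2 ± 1.95 in WT (SD, n = 3 each). SFRP1 made up 89.4% in H1047R, 84.6% in E545K and 58.6% in WT, and DKK1 made up 9.52%, 14.6% and 40.7%. In E545K the higher SFRP1 level stood beside the lower DKK1 level, and in H1047R none of these 4 was called higher than in WT.

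**Figure D4:**
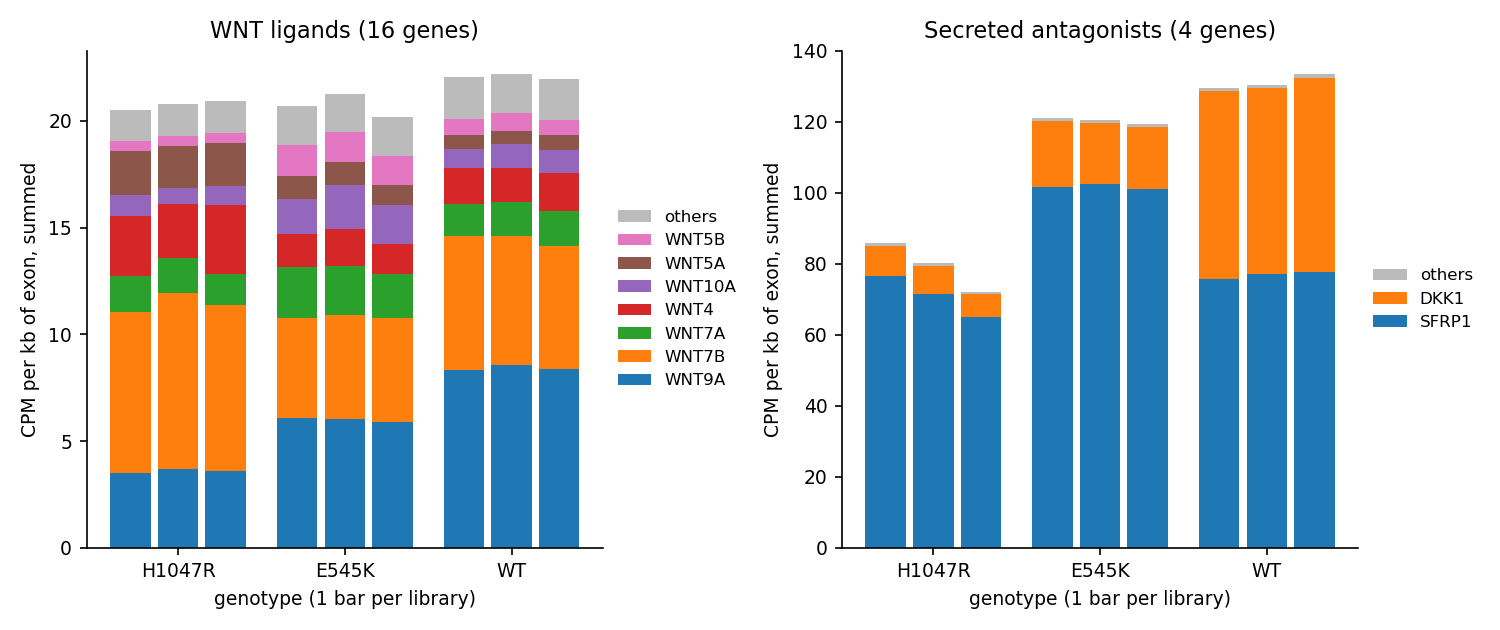
Stacked levels in CPM per kb of exon of the 16 ligands (left) and the 4 secreted antagonists (right), with 1 bar per library and H1047R, E545K and WT from left to right. The ligand bars are of like height, at 20.2 to 22.2 CPM per kb, with more WNT7B and less WNT9A in H1047R, and the antagonist bars are 72.2 to 85.9 in H1047R, against 129.7 to 133.4 in WT.

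Levels per exon length spanned the whole list. SFRP1 averaged 71.0 CPM per kb in H1047R, 102 in E545K and 76.9 in WT, DKK1 7.59, 17.6 and 53.4, FZD6 35.5, 33.6 and 34.0, and LRP5 15.4, 20.5 and 25.6. There were 15 genes above 10 CPM in every genotype and 10 below 1 CPM in every library (WNT1, WNT2, WNT3, WNT3A, WNT6, WNT11, WNT16, FZD9, WIF1 and ROR2).

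**Figure D5:**
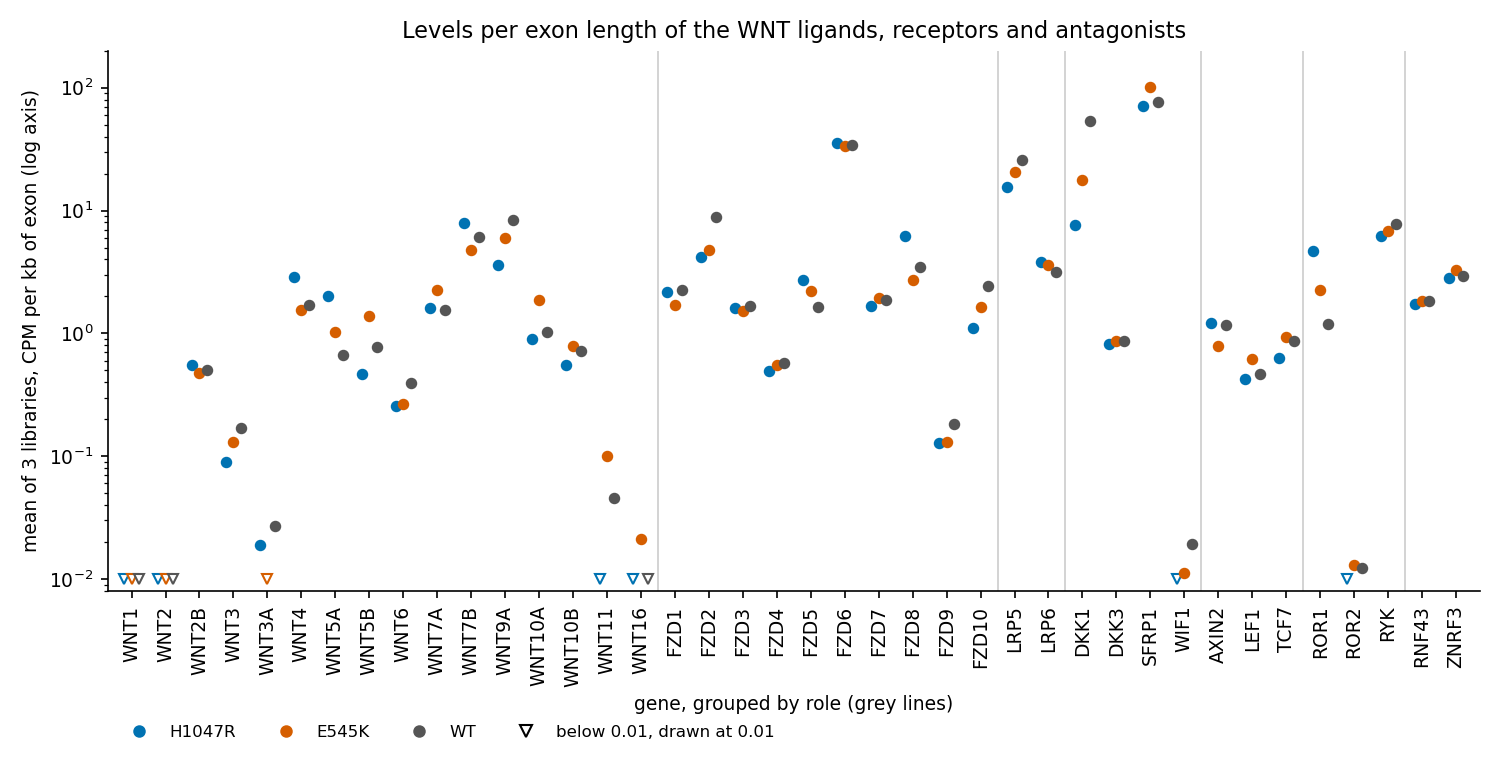
Mean level of each of the 40 genes in CPM per kb of exon, on a log axis, over 3 libraries each of H1047R, E545K and WT. SFRP1 is the highest in each genotype, and means under 0.01 are drawn as open triangles at 0.01.

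The wider pathway was read from a list of 91 other WNT genes, of which 75 were tested. In H1047R against WT, 33 were called higher and 25 lower, beside 27.4% and 28.1% of all genes. In E545K against WT, 22 were higher and 26 lower, beside 17.7% and 18.9% of all genes. In H1047R against E545K, 32 were higher and 19 lower, beside 25.9% and 27.3% of all genes. With libraries scaled by their totals only, without TMM factors, 28 were higher and 18 lower in E545K against WT, and 25 higher and 32 lower in H1047R against E545K, so the direction of both splits rests on the scaling. The medians were 0.10, -0.02 and 0.02 on the log2 scale, near those of all genes.

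The 2 tested genes of ligand processing and secretion went opposite ways. PORCN, the acyltransferase that lipid-modifies WNT ligands, averaged 5.53 ± 0.479 CPM in H1047R, 9.05 ± 0.186 in E545K and 11.8 ± 0.381 in WT (SD, n = 3 each). It fell by 1.09 in H1047R against WT (adjusted p = 3.76e-09) and by 0.38 in E545K against WT (0.000533). WLS, the carrier that takes WNT ligands to the cell surface, averaged 66.1 ± 2.6 CPM in H1047R, 51.2 ± 1.18 in E545K and 36.2 ± 0.619 in WT, and rose by 0.87 (1.89e-10) and 0.50 (2.65e-07). TCF7L1, a TCF factor that mostly represses, averaged 3.35 ± 0.561 CPM in H1047R, 9.71 ± 0.252 in E545K and 15.7 ± 0.997 in WT, and fell by 2.23 (5.68e-11) and 0.70 (3.73e-05). TLE2, a Groucho-type corepressor of TCF factors, averaged 15.7 CPM in H1047R, 7.30 in E545K and 10.6 in WT, with log2 fold changes of 0.57 (3.91e-06) and -0.54 (2.56e-05). Of the 14 nuclear genes, 6 were called higher and 4 lower in H1047R against WT, and 2 higher and 9 lower in E545K against WT, beside 55.5% and 36.6% of all genes called in either direction. The smallest of these falls in E545K was -0.14, and library totals only moved the median of all genes there to 0.10. Of 21 tested genes of transduction and the destruction complex, 9 were higher and 8 lower in H1047R, and 6 and 8 in E545K.

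NKD1, a feedback inhibitor acting on Dishevelled, was, like AXIN2, lowest in E545K. It averaged 6.47 ± 1.12 CPM in H1047R, 2.23 ± 0.0739 in E545K and 3.38 ± 0.180 in WT (SD, n = 3 each), with log2 fold changes of 0.94 in H1047R against WT (adjusted p = 4.69e-06), -0.60 in E545K against WT (0.00132) and 1.54 in H1047R against E545K (4.21e-08). CELSR3, a cadherin of planar polarity, averaged 18.6 CPM in H1047R, 14.0 in E545K and 7.53 in WT and rose in both mutants, by 1.31 (6.61e-10) and 0.89 (1.65e-07). APCDD1, a cell-surface inhibitor of the pathway outside the 4 antagonists above, had 2.32, 3.47 and 2.61 CPM in H1047R, 3.53, 3.42 and 3.67 in E545K and 0, 0.0846 and 0.0636 in WT. It was called higher in both mutants (2.83e-09 and 4.56e-09), and its fitted fold change is not given because WT was near the floor.

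Of 14 genes used as beta-catenin readouts in many cell types, 8 were called higher and 3 lower in H1047R against WT, and 6 higher and 1 lower in E545K against WT. All genes gave 27.4% higher and 28.1% lower in H1047R, and 17.7% and 18.9% in E545K. SP5, a direct target in many tissues, averaged 0.658 CPM in H1047R, 0.767 in E545K and 2.13 in WT and fell in both mutants (-1.70, adjusted p = 1.48e-07, and -1.47, 2.72e-06). TNFRSF19, a receptor of the tumour necrosis factor family, fell in H1047R against WT (-2.15, 5.37e-05), to 0.15 CPM against 0.669 in WT. MYC, a growth-promoting transcription factor, averaged 308 CPM in H1047R, 461 in E545K and 400 in WT, and was called lower in H1047R (-0.38, 5.91e-06) and higher in E545K (0.21, 0.00263). SOX9, a transcription factor of stem and progenitor cells, averaged 51.4 ± 4.43 CPM in H1047R, 108 ± 1.99 in E545K and 24.7 ± 0.905 in WT (SD, n = 3 each), with log2 fold changes of 1.06 (adjusted p = 5.51e-10) and 2.14 (1.82e-12) against WT. NRCAM, a cell adhesion molecule, averaged 9.67 CPM in H1047R, 16.8 in E545K and 6.06 in WT and was also called higher in both mutants (0.67, 5.27e-05; 1.46, 4.03e-08). IRX3, a homeobox gene, averaged 227 CPM in H1047R, 70.2 in E545K and 75.4 in WT. It rose by 1.59 in H1047R against WT (1.65e-13), and E545K against WT was -0.10 (0.053). CCND1 averaged 131 CPM in H1047R, 133 in E545K and 66.6 in WT. It rose by 0.98 (1.87e-08) and 0.99 (4.42e-08) against WT. MMP7 averaged 3.57 CPM in H1047R, 0.803 in E545K and 0.445 in WT and was called higher in both mutants (4.95e-10 and 0.0012). TCF4 (1.06, 1.4e-09), CD44 (0.45, 3.13e-07) and PPARD (0.32, 5.04e-05) were called higher against WT in H1047R and not in E545K. FGF18 was called higher against WT in E545K (0.000886) and not in H1047R.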

How the data were processed

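Gene counts from rRNA-depleted, paired 150 bp RNA libraries were analysed as the authors deposited them, in 2 tables: H1047R alone, and E545K with WT. Per the file headers, counts were made by featureCounts 2.0.0 with GENCODE 32 on hg38, over exons, without strand, with each mate counted by itself and reads in overlapping genes counted for each. The submitters' processing notes list STAR, cutadapt, Trim Galore 0.4.0, SAMtools 1.5 and FastQC as further tools, with no settings. Exon length per gene, the other deposited value used, comes from the same tables.

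Identifiers were matched without version to GENCODE 44 symbols (60295 of 60609 matched, all 40 members among them). Genotypes were tested in 1 quasi-likelihood model of all 9 libraries in edgeR 4.0.16 (R 4.3.3), after default filterByExpr and TMM, with Benjamini-Hochberg adjustment over 26412 genes. A standard error is the log2 fold change divided by the square root of the F statistic. The method was tested on counts simulated with the same spread in every genotype. The genotypes here differ in spread, as given below, and that case was not simulated. Whether replicates are separate cultures is not given, and the spread that p-values rest on is that between these libraries alone and may be technical. The biological coefficient of variation was 0.215 within H1047R, 0.0288 within E545K and 0.0328 within WT, against 0.118 for all, so the pooled model is lenient for H1047R and conservative for E545K against WT.

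Values in every library are given for members called with at least a 2-fold change at 1 CPM or more and for members above 10 CPM in every genotype, and WNT3A, WNT11, WIF1, ROR2, AXIN2, LEF1 and TCF7 were added after their values were seen. Other pathway genes are named where called with at least a 2-fold change at 5 CPM or more. At most 3 per group were named by this rule, by size of change. To these WLS, APCDD1, SP5, TNFRSF19, MYC, CCND1, MMP7, TCF4, CD44, PPARD and FGF18 were added after their values were seen. The members, lists and rules were chosen with earlier results of these data known. Alternatives were DESeq2 1.42.0, its size factors, library totals only, no filter or a filter of 1 CPM, protein-coding genes only, the 2 compared genotypes only, counts thinned to the smallest total, a replicate block, and each library left out.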

Additional observations from a re-analysis of the deposited data

How the results depend on the processing

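Over 108 pairs of a member and a comparison and 18 alternative settings, 86 pairs kept their call in every setting that gave a value and 22 changed it in at least 1. No log2 fold change that was called reversed its sign. The genes called with at least a 2-fold change in E545K against WT were 2 with library totals only (ROR1 came to 1.01 beside DKK1), against 1. Library totals only moved the median log2 fold change of all genes to 0.10 in E545K against WT, where TMM gave 0.00, and to -0.12 in H1047R against E545K, where TMM gave 0.02. The medians of the members were then 0.06 and -0.28. Called members ranged over the settings from 16 to 22 in H1047R against WT, 19 to 21 in E545K against WT and 22 to 28 in H1047R against E545K, and from 16 to 20, 19 to 20 and 22 to 26 when single libraries were left out. Beside them, all genes called ranged over the settings from 11005 to 16140, 7979 to 12585 and 10738 to 15295. With single libraries left out they ranged from 13077 to 15791, 7979 to 11251 and 12452 to 15295. Other pathway genes called with at least a 2-fold change in H1047R against E545K were 6 with the filter of 1 CPM, against 12.

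Same-numbered libraries did not deviate together over the genes tested (correlations of -0.0348 to 0.0227). A batch shared by same-numbered libraries that touches only some genes could go unseen in such a correlation. With the replicate block, 18 members were called in H1047R against WT, 20 in E545K against WT and 25 in H1047R against E545K, WNT6 (-0.61, adjusted p = 0.0574) and FZD7 (-0.17, 0.054) being lost in the first. All genes called with the block were 14394 in H1047R against WT and 9441 in E545K against WT, where the main fit gave 14651 and 9663. Library totals only ended the calls of RYK in E545K against WT (-0.09, 0.0754) and of WNT2B in H1047R against E545K (0.09, 0.4). It added calls of FZD4 and SFRP1 in H1047R against WT and of WNT3, FZD4, DKK3 and RNF43 in H1047R against E545K. Protein-coding genes only added calls of WNT2B and FZD6 in H1047R against WT and of FZD3, FZD6 and LRP6 in H1047R against E545K, and ended those of WNT6 and FZD7 in the first and of FZD7 and RYK in the second. Without a filter on low counts WNT6, WNT10B and FZD7 were not called in H1047R against WT, nor FZD2, FZD7 and RYK in H1047R against E545K, where FZD6 was. With thinned counts WNT6 and WNT10B were not called in H1047R against WT, where SFRP1 was, nor WNT2B in H1047R against E545K. Depth limits WNT1, WNT2, WNT3A, WNT11, WNT16, WIF1 and ROR2, each of which had 3 counts or fewer in at least 1 library. The cause of these shifts was not tested.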
